A study of Mus musculus with 2 samples.

Results

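The genes that make, break down, carry and read retinoic acid, together with the Meis homeobox genes, were followed in cells of the developing mouse limb. The members were the rows of both count matrices whose gene symbol was Aldh1a2, Rdh10, Cyp26b1, Crabp1, Crabp2, Rarb, Rarg, Meis1 or Meis2. All 9 were present, of 32285 genes listed in each matrix. The cells came from skeletal muscle tissue of the forelimbs and hindlimbs of wild-type C57Bl/6 mouse embryos at the embryonic ages E12.5 and E15.5 (days after conception). There was 1 droplet-based single-cell RNA library per age, with fore- and hindlimb cells mixed, and the labels give neither the number nor the sex of the embryos. With no replicate library, age cannot be told apart from differences between the 2 preparations, and no test between ages was possible. All intervals below are 95% intervals that cover counting error only.

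Retinoic acid is made from retinol (vitamin A) in a pair of oxidation steps. Rdh10 encodes the retinol dehydrogenase that makes retinaldehyde, and Aldh1a2 the aldehyde dehydrogenase that turns it into retinoic acid. Cyp26b1 encodes a cytochrome P450 enzyme that breaks retinoic acid down. Crabp1 and Crabp2 encode small proteins that bind it inside the cell, and Rarb and Rarg encode nuclear receptors that switch genes on when bound by it. Rarb is a textbook target of the pathway. Meis1 and Meis2 encode homeodomain transcription factors that are known for marking the proximal limb bud and for responding to retinoic acid there, while Cyp26b1 is known for clearing the acid from the distal limb bud.

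The promoter of Rarb is shown because it holds the letters of the classic retinoic acid response element, a direct repeat of GTTCA with 6 bases between the copies. The 250 bases before its RefSeq start site lie at chr14:16575477-16575726 of GRCm38.p6 on the minus strand, inside the annotated gene, and the repeat is in capitals.
Rarb promoter: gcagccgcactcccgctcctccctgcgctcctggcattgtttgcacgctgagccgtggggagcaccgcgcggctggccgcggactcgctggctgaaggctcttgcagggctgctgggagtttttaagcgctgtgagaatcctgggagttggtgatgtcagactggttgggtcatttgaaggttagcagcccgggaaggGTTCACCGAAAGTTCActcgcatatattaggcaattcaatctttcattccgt
The match, GTTCACCGAAAGTTCA, began 52 bases before the start site. RefSeq promoter windows (250 bases before to 50 after the start) were found for 7 of the 9 genes, as 8 windows. Searched on either strand, the repeat was in 1 of these 8 and in 25 of 32851 promoters of all genes (0.0761%). This promoter was shown for holding those letters, so that its match and the low share are not evidence by themselves. A looser form, with 1 base of each copy left free, was in 283 promoters (0.861%) and in 1 of the 8, that of Rarb. The looser form with a shorter gap between the copies was in 1.12% of all promoters and in 0 of the 8. The Meis letters TGACAG were in 1 of the 8, again that of Rarb, beside 19.2% of all promoters. A longer string for Meis with its partner Pbx was in 0 of the 8 and in 0.222% of all promoters. A match is a description of the letters and not a bound site.

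The E12.5 library held 12941 barcodes with a median of 2384 UMIs (unique molecular identifiers, each marking a captured RNA molecule), and the E15.5 library held 5780 with a median of 7332.5. The libraries shared 17 barcodes. After filtering, 11001 and 3916 cells remained, in 27 clusters per library. Clusters were named from marker genes, and a name ending in -like is a class rebuilt here, not an annotation of the authors. The connective tissue-like class held 8543 cells (77.7%) in 16 clusters at E12.5 and 1623 cells (41.4%) in 6 clusters at E15.5. The muscle-lineage-like class held 597 and 396 cells, so that most cells at both ages were not of the muscle lineage. The 12 muscle markers summed to 12228 CPM (UMIs summed over a class, per 1000000 UMIs of that class) in the muscle class at E12.5, against 119 CPM in the connective class. At E15.5 these sums were 5814 and 82.1 CPM. A connective cell had a median of 2247 UMIs in the earlier library and 9960 in the later one. Levels are therefore given as CPM of the summed UMIs of a class, and shares of cells are given after thinning each cell to 2000 UMIs, which left out 3365 of the 8543 connective cells at E12.5 and 5 of the 1623 at E15.5.

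**Figure D1:**
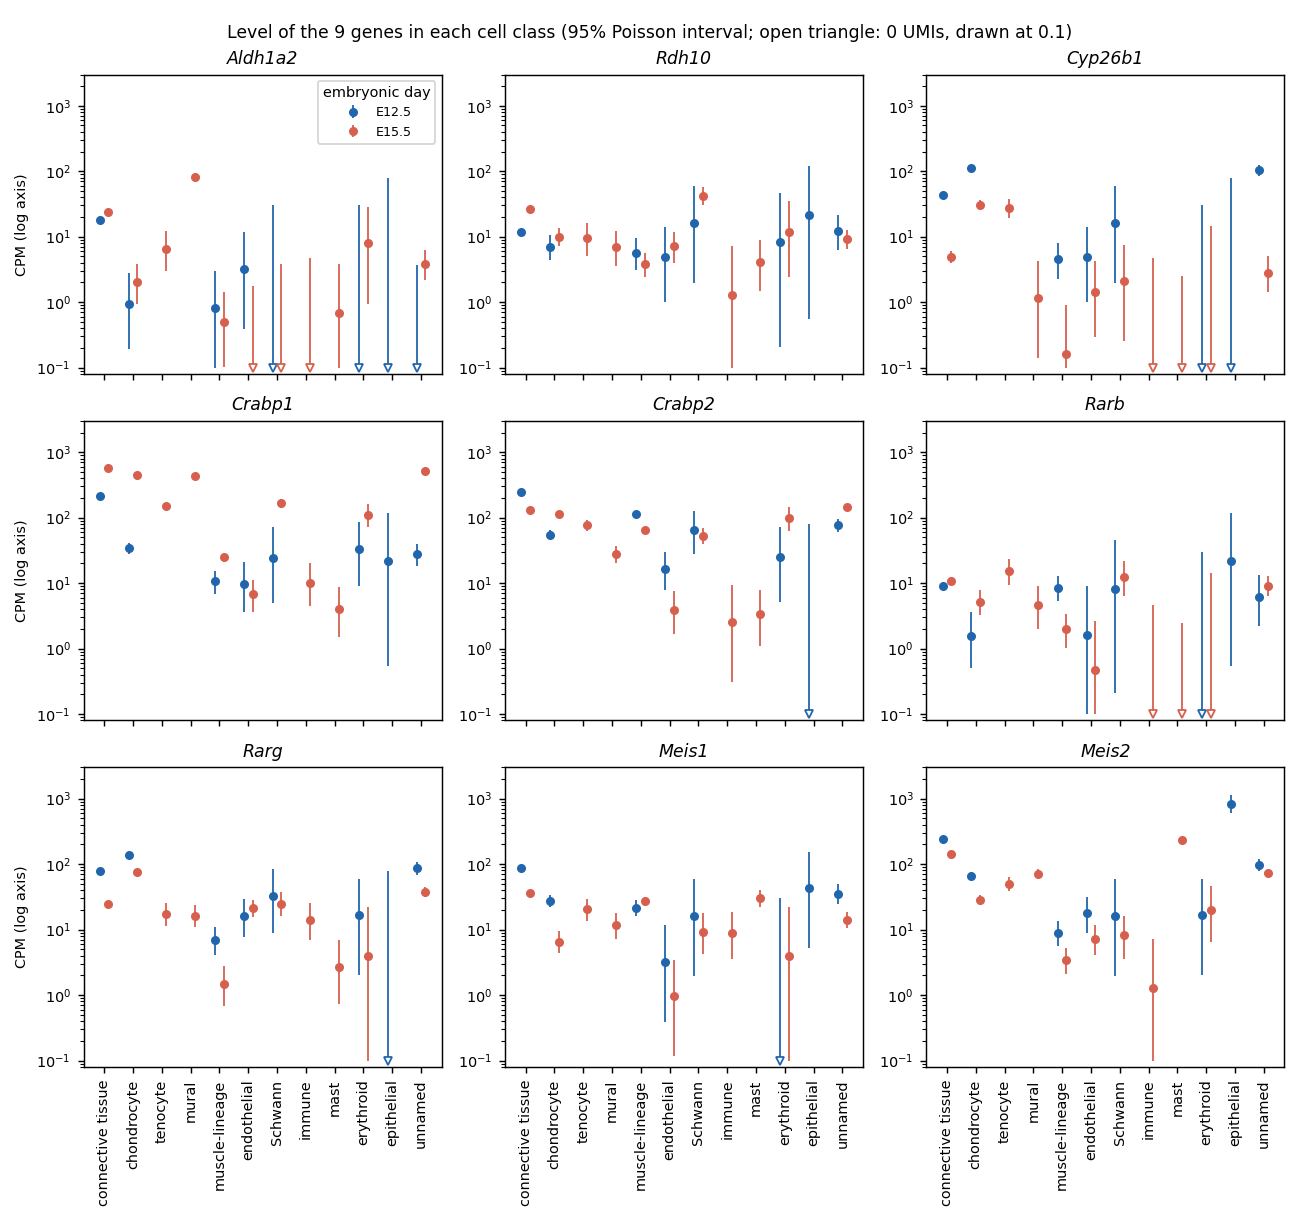
Level of each of the 9 genes (CPM of summed UMIs, log axis) in every cell class, for E12.5 (blue) and E15.5 (red), with exact Poisson intervals; open triangles mark classes with 0 UMIs, and classes not found at an age have no point. Cyp26b1 stood lower at E15.5 in the connective tissue class (42.8 against 4.94 CPM), while Aldh1a2 at E15.5 was highest in the mural class (80.8 CPM).

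Between the ages, the connective tissue-like cells held less of the degradation gene Cyp26b1 and more of the synthesis gene Rdh10 at E15.5, while the other synthesis gene, Aldh1a2, differed by less than 2-fold. Of the 9 members, all passed the filter on low values (mean of the 2 levels at least 10 CPM). Of these, 3 were at least 2-fold lower at E15.5 (Cyp26b1, Rarg and Meis1), where 17.9% of the 9029 genes tested were. Another 2 were at least 2-fold higher (Rdh10 and Crabp1), where 7.72% of all genes were. The median log2 ratio of the 9 was -0.81, and that of all genes tested was -0.32, so that a typical gene was itself somewhat lower in CPM at E15.5. Rarb passed the filter narrowly: it was tested in only 5 of the 11 alternatives described below.

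Aldh1a2 (chromosome 9, 71215789 to 71296243, plus strand, mouse build GRCm38, as for all positions below), the enzyme of the last synthesis step, was measured in connective cells at 17.9 CPM (16.1 to 19.8), and in the later library at 24.1 CPM (21.9 to 26.5). The log2 ratio was 0.43 (0.23 to 0.64), short of 2-fold. The direction depended on how cells were chosen: when single cells were gated on marker UMIs in place of clusters, the log2 ratio was -0.95. Within the E12.5 connective cells, the gene was concentrated in 1 cluster of 911 cells, led by Aldh1a2 itself with Ebf2, Tshz2 and Cxcl12. There it reached 77.8 CPM (65.8 to 91.4), with the next cluster at 32.2 CPM and the median of the 22 clusters with at least 50 cells at 5.62 CPM. That cluster also held the highest Rarb level of those 22 (20.9 CPM, overlapping the next), Meis2 at 576 CPM and Meis1 at 162 CPM. Over all 16 connective clusters of the age the coefficients of Aldh1a2 with the Meis genes were negative (r = -0.26 and rho = -0.41 with Meis1, r = -0.31 and rho = -0.51 with Meis2), and over the 6 of E15.5 they were positive (r = 0.78 and r = 0.84). Cyp26b1 in the cluster of 911 cells was 18.3 CPM, below its level in the whole class. The muscle class held 2 UMIs of the gene in the earlier library and 3 in the later.

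At E15.5 the highest Aldh1a2 level of any cluster was in mural-like cells, the contractile cells of vessel walls, led by Rgs5, Gucy1a1, Acta2 and Myh11. It was 80.8 CPM (67.9 to 95.4; 139 UMIs), and 32.5% of the 123 cells had a UMI before thinning and 13.0% after. Endothelial-like, immune-like and Schwann-like cells of the same library had 0 UMIs, which allows levels up to 1.44, 3.83 and 3.11 CPM. Across the 21 clusters of at least 50 cells, the genes with the most similar pattern were Abcc9 (r = 0.83), Tbx18 (r = 0.75) and Gucy1a1 (r = 0.74), although Aldh1a2 itself was under the minimum mean of 20 CPM set for the genes ranked. The 10 connective tissue markers, all detected, summed to 7109 CPM in the mural class and to 17329 CPM in the connective class. The highest Aldh1a2 level of any connective cluster at this age was 34.0 CPM, below the mural interval.

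Rdh10 (chromosome 1, 16105774 to 16133734, plus strand), the enzyme of the first synthesis step, stood at 11.7 CPM (10.3 to 13.3) and 26.9 CPM (24.5 to 29.4) in the connective class. This was 2.29-fold higher at E15.5 (log2 ratio 1.20, 0.97 to 1.43). With tenocyte-like, chondrocyte-like and unnamed clusters, some of the last led by immune genes, joined to the class the log2 ratio was 0.90, and with the marker gate it was 0.23, both under 2-fold. Muscle cells had 5.70 CPM (14 UMIs) and 3.76 CPM (23 UMIs). The highest E15.5 levels were 50.9 CPM (44.1 to 58.5) in a connective cluster led by Aldh1a3, Ngfr and Cntfr, and 42.4 CPM (30.5 to 57.6) in Schwann-like cells, and these did not differ beyond their intervals. At E12.5 no cluster stood apart, and the top cluster, of 54 cells, rested on a level of 26.5 CPM with an interval of 5.47 to 77.6.

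The 2 synthesis genes were not detected in the same connective cells at E12.5. After thinning, 0 of 114 cells with an Aldh1a2 UMI had a Rdh10 UMI, beside 2.39% of the 5064 cells without one, and a count of 0 among 114 allows up to 3.18% by the exact binomial interval. That interval includes the other share, so that a difference was not detectable at this depth.

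Cyp26b1 (chromosome 6, 84571414 to 84593908, minus strand), the degrading enzyme, had the widest age gap of the 9 in connective cells. In connective cells it stood at 42.8 CPM (40.0 to 45.7; 885 UMIs) and then at 4.94 CPM (3.95 to 6.09; 87 UMIs), which is 8.66-fold lower (log2 ratio -3.11, -3.45 to -2.80). After thinning, 7.45% of the earlier connective cells had a UMI and 0.865% of the later ones. The mesenchyme was split differently at the 2 ages: clusters led by the joint gene Gdf5 counted as connective at E12.5, with 69.0 and 104 CPM of Cyp26b1, while at E15.5 the cluster with Gdf5 among its leading genes counted as chondrocyte. With those clusters joined as for Rdh10 the log2 ratio was -2.43. Over all kept barcodes the level was 47.9 CPM and then 6.87 CPM.

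Among the named classes, Cyp26b1 was highest in chondrocyte-like cells at both ages, with tenocyte-like cells next to them at E15.5. Chondrocyte-like cells, named for the makers of cartilage, had 110 CPM (99.1 to 123) in the earlier library and 30.8 CPM (25.8 to 36.4) in the later. The class differed in its markers between the ages. Its 9 chondrocyte markers summed to 11515 CPM at E12.5 and 4193 CPM at E15.5. Its 10 connective markers summed to 2017 CPM and then 8759 CPM, so that the later class was not cartilage alone. An unnamed E12.5 cluster whose leading genes included Thbs4, Mkx and Six2 had 126 CPM (102 to 153), overlapping the chondrocyte level. Tenocyte-like cells of tendon, named at E15.5, had 27.6 CPM (19.5 to 37.8), and a small connective cluster led by Twist2, Stmn2 and Apcdd1 had 46.5 CPM (34.0 to 62.0). The genes closest in pattern across the 22 larger E12.5 clusters were Wwp2, Nlgn3 and Col9a2, each with r = 0.93. Muscle cells held 11 UMIs and then 1.

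Cyp26b1 and Aldh1a2 were seldom found in the same E12.5 connective cell. Of the 114 thinned cells with an Aldh1a2 UMI, 0.877% (0.0222 to 4.79) had a Cyp26b1 UMI, against 7.60% (6.89 to 8.37) of the cells without. Of 1471 cells with a Crabp1 UMI, 4.62% (3.61 to 5.82) had one of Cyp26b1, against 8.58% (7.70 to 9.53) of the rest. Of 758 cells with a Meis1 UMI the share was 3.56% (2.36 to 5.14), against 8.12% (7.33 to 8.97). In the other direction, 10.5% (8.32 to 13.0) of the 695 cells with a Rarg UMI had one of Cyp26b1, against 6.98% (6.25 to 7.77). The intervals did not overlap in these 4 pairs, which are among the 8 partners looked at for Cyp26b1. At E15.5 the shares stood in the opposite order for 3 of these partners. The Cyp26b1 share was 3.08% (0.375 to 10.7) of 65 cells with Aldh1a2 against 0.773% (0.400 to 1.35) of those without. It was 2.54% (0.527 to 7.25) against 0.733% (0.367 to 1.31) for Meis1 and 1.25% (0.572 to 2.35) against 0.558% (0.181 to 1.30) for Crabp1. All 3 pairs of intervals overlap, so that a difference was not detectable at this depth. Across the 16 connective clusters at E12.5, Cyp26b1 ran opposite to Rdh10 (Pearson r = -0.70, Spearman rho = -0.69) and with Rarg (r = 0.60, rho = 0.73). Across the 6 at E15.5 the coefficients were r = -0.23 and rho = 0.03 with Rdh10, and r = 0.56 and rho = 0.31 with Rarg. The clusters of an age share 1 library and its depth, so that the coefficients are descriptions.

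**Figure D2:**
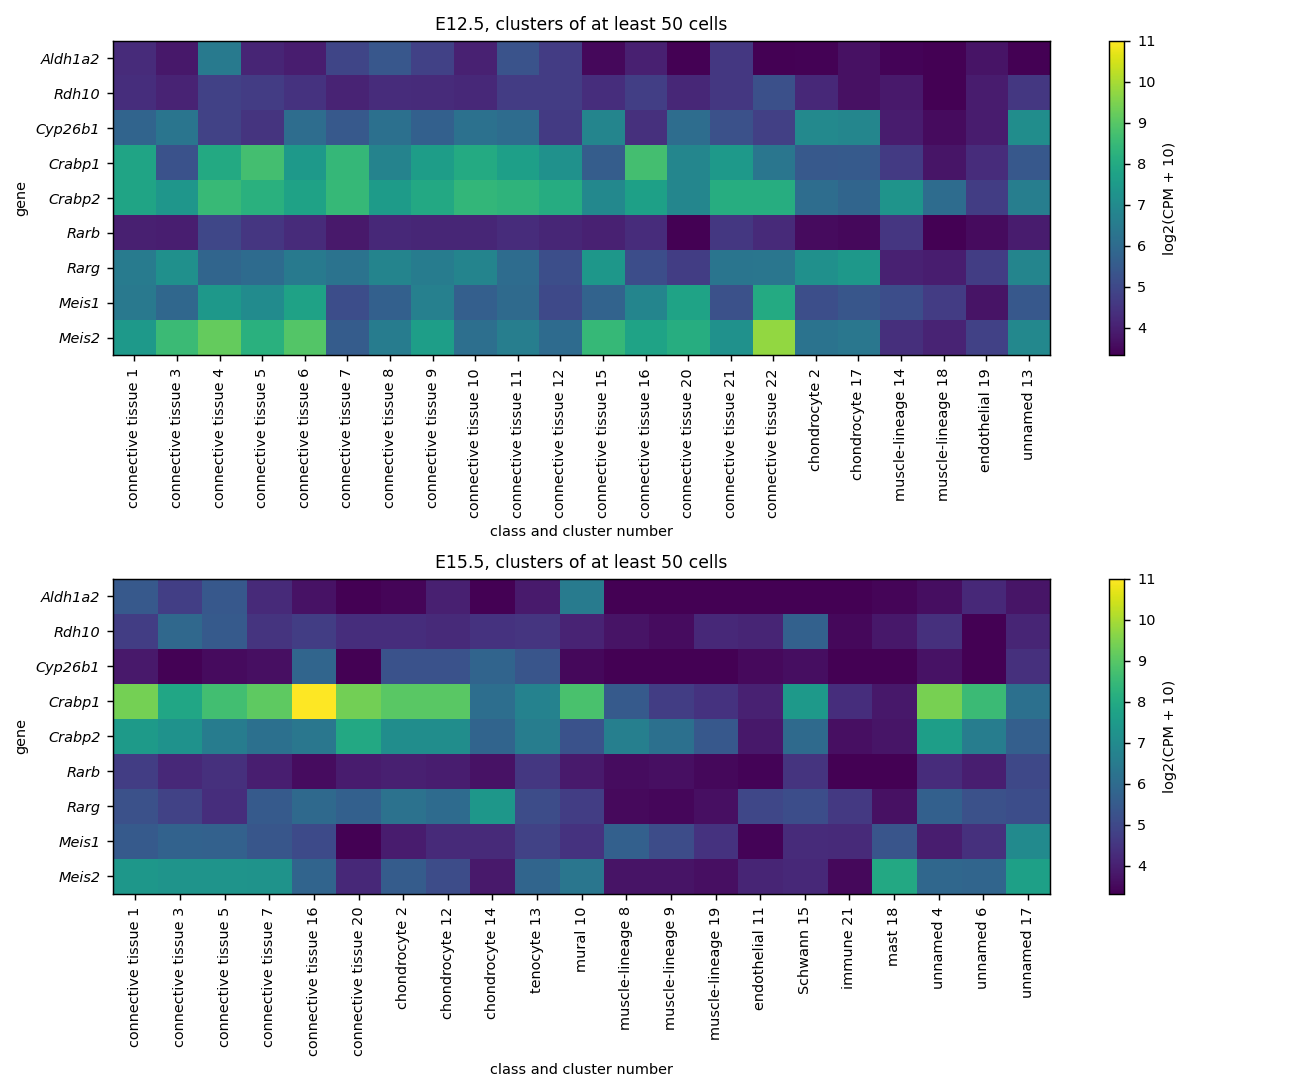
Level of the 9 genes, as log2(CPM + 10), in each cluster of at least 50 cells, E12.5 above and E15.5 below; columns give the class and the cluster number, and brighter colours are higher levels. Cyp26b1 and Rarg were bright in the chondrocyte columns and dark in the muscle columns, and Crabp1 was brightest in connective tissue cluster 16 of E15.5 (2130 CPM).

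In connective cells the genes of the binding proteins had ratios of opposite sign between the ages. Crabp1 (chromosome 9, 54764748 to 54773110, plus strand), often described as holding retinoic acid in the cytoplasm, had 214 CPM (207 to 220) in the earlier connective cells and 581 CPM (570 to 593) in the later ones. This was 2.72-fold higher (log2 ratio 1.44, from 1.39 to 1.496). Crabp2 (chromosome 3, 87948666 to 87953376, plus strand), which hands retinoic acid to nuclear receptors, stood at 247 CPM (240 to 254) and 132 CPM (126 to 137), a log2 ratio of -0.91 (-0.98 to -0.84) that is short of 2-fold. The thinned share of cells with Crabp1 was 28.4% and then 44.6%, and that with Crabp2 was 36.3% and then 22.9%.

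At E15.5, 2108 of the 10247 Crabp1 UMIs of the connective class lay in 1 small cluster. The 83 cells led by Twist2, Stmn2 and Apcdd1, with Irx1, Irx3 and Irx5 among the leading genes, had 2130 CPM (2040 to 2223), against 680 CPM in the next cluster. Erythroid-like cells of E15.5 had 110 CPM (73.2 to 159; 28 UMIs, 17 cells), with their 10 connective markers summing to 4319 CPM, while endothelial-like cells had 6.71 CPM (3.67 to 11.3) with a marker sum of 283 CPM. The part of connective RNA in the erythroid level was not tested. In chondrocyte cells Crabp1 went from 34.3 CPM (28.1 to 41.3) to 445 CPM (425 to 465), a wider gap than in the connective class, in classes whose clusters differ between the ages as said for Cyp26b1. By cluster, the E12.5 levels were 33.9 and 35.3 CPM. Those of E15.5 were 518, 510 and 58.2 CPM (41.6 to 79.3 for the last). That last cluster was the one led by Col2a1, Matn1 and Col9a1, so that the wide gap was not found there. Crabp2 was 57.5 and 47.1 CPM in the chondrocyte clusters of E12.5, and 127, 124 and 45.1 CPM in those of E15.5. The larger chondrocyte clusters of E15.5 thus held more of both genes than those of E12.5. At E12.5 the top Crabp1 clusters, led by Calb2 with Lum, were level with each other at 409 and 407 CPM. The genes closest in pattern were S1pr3 at E12.5 (r = 0.94) and Twist1 at E15.5 (r = 0.90).

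Rarb (chromosome 14, 16430839 to 16819156, minus strand), the receptor gene whose promoter is shown above, was low in every class. It stood at 9.08 CPM (7.83 to 10.5) and 10.95 CPM (9.46 to 12.6) in connective cells, a log2 ratio of 0.27 whose interval, -0.03 to 0.57, includes 0. Tenocyte-like cells at E15.5 had 15.2 CPM (9.43 to 23.3) and Schwann-like cells 12.4 CPM (6.42 to 21.7), which overlap each other and the connective level. The annotated end of Rarb overlaps Top2b on the opposite strand, and the antisense gene Gm48162 also overlaps Rarb, across part of the promoter shown. Whether the counting used strand is not given in the sources used here. In mast-like and immune-like cells of E15.5 Rarb had 0 UMIs and Top2b 147 and 72, and the part of Top2b reads in the Rarb levels of other classes was not tested.

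Rarg (chromosome 15, 102234938 to 102257517, minus strand), the receptor known for cartilage, had 77.4 CPM (73.6 to 81.3) in the earlier connective cells and 24.9 CPM (22.6 to 27.3) in the later ones. This was 3.11-fold lower (log2 ratio -1.64, -1.79 to -1.49). The different split of the mesenchyme described for Cyp26b1 bears on this ratio. The E12.5 clusters led by Gdf5, counted as connective, had 134 and 158 CPM of Rarg. The E12.5 chondrocyte clusters had 134 and 160 CPM. With the clusters joined as for Rdh10 the log2 ratio was -1.305. As a class, chondrocyte-like cells were higher than the connective class at both ages, with 140 CPM (127 to 154) and 76.8 CPM (68.8 to 85.4). The E15.5 cluster led by the cartilage matrix genes Col2a1, Matn1 and Col9a1 had 159 CPM (130 to 191), apart from the next cluster at 64.7 CPM. The closest genes in pattern to Rarg at E12.5 were Cd24a (r = 0.95), Cthrc1 (r = 0.92) and Sox9 (r = 0.91), the last the master regulator of cartilage. Endothelial-like cells had 21.1 CPM at E15.5, so that muscle cells, at 1.47 CPM (9 UMIs), stood below them.

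**Figure D3:**
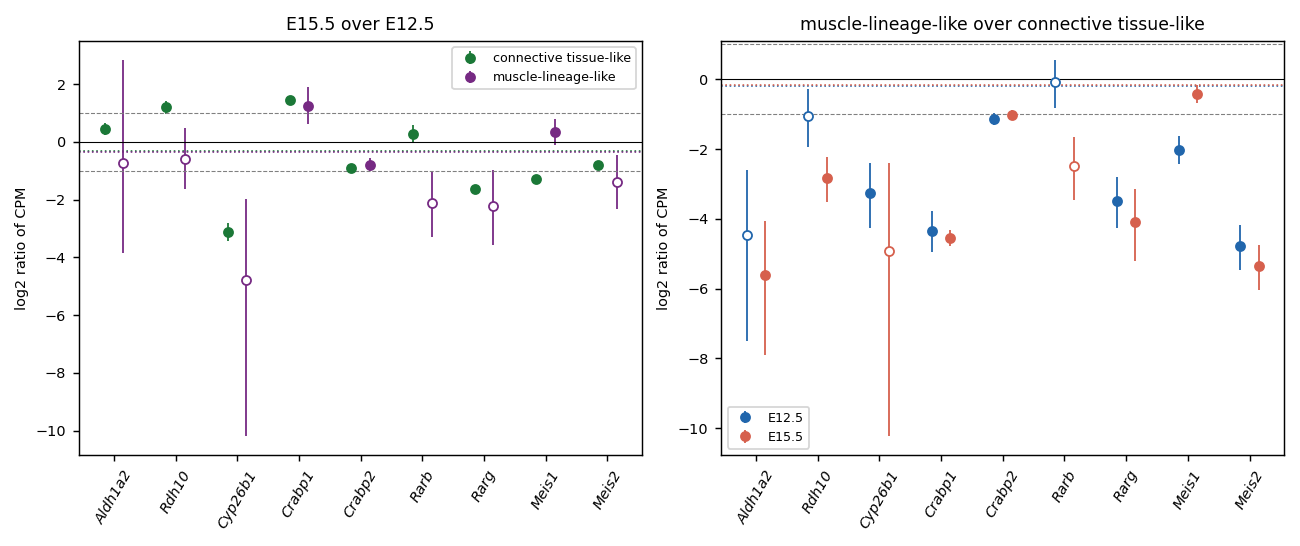
Log2 ratios of CPM with their exact intervals for the 9 genes, E15.5 over E12.5 on the left and muscle-lineage-like over connective tissue-like cells on the right. Open points are genes below the filter on low values, dashed lines mark 2-fold, dotted lines the median of all genes tested; on the right Meis1 at E15.5 sat at -0.41 while Meis2 sat at -5.35.

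Meis1 (chromosome 11, 18879817 to 19018985, minus strand) had 87.2 CPM (83.3 to 91.4) in the earlier connective cells and 36.1 CPM (33.4 to 39.1) in the later ones. This was 2.41-fold lower (log2 ratio -1.27, -1.40 to -1.14), and it was -0.95 relative to the median gene, just under 2-fold. Meis2 (chromosome 2, 115863064 to 116065839, minus strand) stood at 246 CPM (239 to 253) and 140 CPM (135 to 146), a log2 ratio of -0.81 (-0.88 to -0.74). With the marker gate Meis2 was -1.31, past 2-fold. The antisense genes Gm16140 and Gm16141 overlap Meis1, and without knowing whether strand was used their reads cannot be told apart from it.

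The Meis genes ran together over the mesenchyme. The highest levels of both at E12.5 were in a connective cluster of 54 cells led by Slitrk6, Macc1 and Fgf18, with Meis2 at 858 CPM (696 to 1047) and Meis1 at 248 CPM (165 to 358). For Meis2 this stood apart from the next cluster, at 576 CPM, while for Meis1 the interval overlapped those below it. Next in order of Meis1 came a shallow cluster led by Gm26917 and Lars2 (211 CPM) and one led by Gria2, Isl1 and Ptn (205 CPM, with Meis2 at 481 CPM). Over the 16 connective clusters the coefficient between the 2 genes was r = 0.80 (rho = 0.80), and over the 6 of E15.5 it was r = 0.96 (rho = 0.83). At E12.5 Meis1 also ran with Nr2f1, a nuclear receptor gene known to respond to retinoic acid (r = 0.78), while with Rarb r was 0.04. It ran opposite to Hoxa11, a gene of the middle limb segment (r = -0.67). It was also negative with the proximal genes Hoxd10 (r = -0.61), Hoxa9 (r = -0.47), Hoxa10 (r = -0.33) and Hoxd9 (r = -0.31). With proximal Shox2 and Emx2 r was -0.02 and 0.15, and with distal Lhx9 it was -0.04. The coefficients thus did not follow the order of the segments. In single thinned connective cells, Meis2 was found in 49.1% (45.5 to 52.7) of the 758 cells with a Meis1 UMI and in 21.99% (20.8 to 23.2) of those without. At E15.5 these shares were 27.1% (19.3 to 36.1) and 19.7% (17.7 to 21.8), with intervals that overlap. The highest Meis1 cluster of E15.5 was an unnamed one of 82 cells led by Gm26917, with 116 CPM (79.6 to 164) at a median depth of 3065 UMIs, apart from the next at 42.9 CPM.

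**Figure D4:**
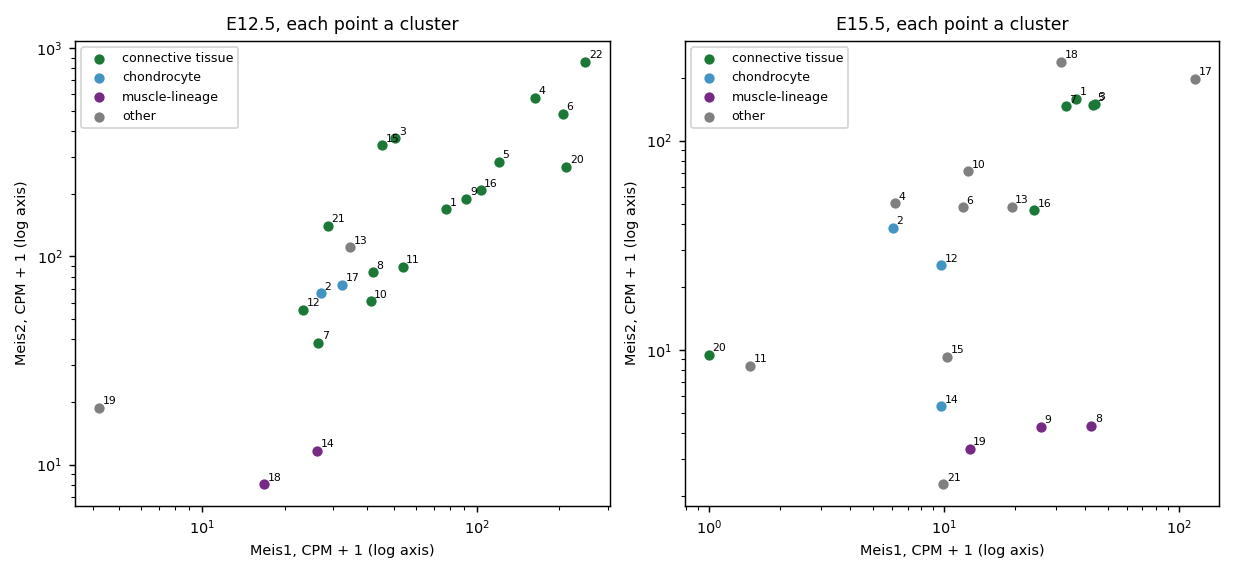
Meis2 against Meis1 level (CPM + 1, log axes) in each cluster of at least 50 cells, numbered, E12.5 on the left and E15.5 on the right, coloured by class. At E12.5 the connective clusters spread along a diagonal up to cluster 22 (248 and 858 CPM), while at E15.5 the muscle clusters 8 and 9 lie low in Meis2 (3.34 and 3.28 CPM) at Meis1 levels (41.4 and 24.8 CPM) within the range of the connective clusters.

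Outside the mesenchyme, Meis2 was high in mast-like and epithelial-like cells. Mast-like cells of E15.5, led by Cma1, Cpa3 and Tpsb2, had 237 CPM (212 to 263; 350 UMIs), the highest cluster level of the age, overlapping the next, and 97.1% of the 70 cells had a UMI. After thinning 45.7% did, against 0 of 56 immune-like cells. Meis1 in the mast cells was 30.4 CPM (22.2 to 40.7). Epithelial-like cells of E12.5 had 837 CPM of Meis2 (596 to 1145), but these were only 16 cells with 39 UMIs.

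Cells with a UMI of the distal genes Hoxa13 or Hoxd13 were few, 69 of the earlier connective cells and 53 of the later ones. This split and the next were chosen after seeing the data. In the E12.5 cells with such a UMI Meis1 was 27.3 CPM (8.87 to 63.8), against 87.8 CPM (83.8 to 91.9) in the others. At E15.5 Meis2 was 52.2 CPM (36.2 to 72.9) with one and 144 CPM (138 to 150) without. Cyp26b1 at E12.5 was 65.6 CPM (33.9 to 115) and 42.5 CPM (39.8 to 45.5), which overlap, and Aldh1a2 was 43.7 CPM (18.9 to 86.2) and 17.6 CPM (15.9 to 19.6), which also overlap and rest on 8 UMIs in the former.

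Split by the forelimb gene Tbx5 and the hindlimb gene Pitx1, connective cells of E12.5 had Aldh1a2 levels with overlapping intervals, 17.0 CPM (12.1 to 23.4) with Tbx5 alone and 17.3 CPM (14.5 to 20.5) with Pitx1 alone. At E15.5 the intervals of Aldh1a2 were apart, at 15.3 CPM (11.1 to 20.6) and 26.5 CPM (22.7 to 30.6). Crabp1 at E12.5 was 181 CPM (164 to 200) and 238 CPM (228 to 249). At E15.5 the gap in Crabp1 was wider, at 436 CPM (412 to 461) and 751 CPM (731 to 772). Meis1 and Meis2 at E15.5 were also lower in the Tbx5 cells, at 21.0 against 41.9 CPM and 100.3 against 152 CPM. Their E12.5 levels overlapped, at 75.3 CPM (64.3 to 87.6) against 69.2 CPM (63.5 to 75.3) for Meis1 and 189 CPM (172 to 208) against 179.8 CPM (170.5 to 189.5) for Meis2. Crabp2 at E12.5 was 235 CPM (215 to 256) in the Tbx5 cells and 272 CPM (261 to 284) in the Pitx1 cells. At E15.5 it was 106 CPM (94.7 to 119) and 165 CPM (156 to 175). Rdh10 at E15.5 went the other way, at 31.0 CPM (24.8 to 38.2) and 20.6 CPM (17.3 to 24.3), and overlapped at E12.5. Cyp26b1, Rarb and Rarg overlapped at both ages. Beyond the intervals, Aldh1a2, Crabp1, Crabp2, Meis1 and Meis2 were thus lower in the Tbx5 cells at E15.5, and Crabp1 and Crabp2 at E12.5. Of the E12.5 cells, 4417 of 8543 had a UMI of neither gene. Those cells had Meis1 at 106 CPM (99.6 to 113) and Meis2 at 313 CPM (302 to 324), above both groups. At E15.5 the median depth was 11666 UMIs with Tbx5 alone and 9647 with Pitx1 alone. Which clusters made up each group was not compared, so that these gaps cannot be assigned to the limb.

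Compared with connective cells, muscle-lineage-like cells held little of most members. At E12.5, 6 of the 6 members that passed the filter were at least 2-fold lower in muscle, where 12.6% of the 8997 genes tested were, and 0 were higher, where 5.24% were. The 6 include Crabp2, whose log2 ratio of -1.13 was close to 2-fold. At E15.5, 6 of 7 were lower, where 19.9% of 8375 genes were, and 0 were higher, where 7.04% were. Since the filter on the mean of both levels passes a gene through the class where it is high, these counts are not evidence of direction by themselves. The medians over the members tested were -3.37 and -4.08, and those of all genes -0.19 and -0.17. They rest on the same filter, so that they are not evidence of direction by themselves either.

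The widest gaps at E12.5 were in Meis2, at 8.96 CPM (5.62 to 13.6) in muscle and 27.4-fold lower than in connective cells, and in Crabp1, at 10.6 CPM (6.92 to 15.52) and 20.2-fold lower. Rarg was 6.93 CPM and 11.2-fold lower, and Cyp26b1 was 4.48 CPM and 9.54-fold lower. At E15.5 Meis2 was 40.9-fold lower, at 3.43 CPM (2.13 to 5.25). With the marker gate in place of clusters that ratio was -1.005 on the log2 scale, and the count of members at least 2-fold lower at E15.5 was 3 in place of 6. The gate set no limit on connective markers in the cells taken as muscle. It took 621 muscle cells in place of 396 and 421 connective cells in place of 1623. The part of connective cells among those gated as muscle was not tested. Muscle cells carried some connective RNA: their 10 connective markers, all detected, summed to 573 and 862 CPM, whose part in the low levels was not tested. Rarb was under the filter. Its E12.5 levels in muscle (8.56 CPM) and connective cells (9.08 CPM) overlapped, with a log2 ratio of -0.09 (-0.81 to 0.57), while at E15.5 the ratio was -2.48 (-3.46 to -1.64).

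Muscle cells held some Crabp2 and Meis1 at both ages, beside the low Rarb of E12.5. Crabp2 was 113 CPM (99.9 to 127) in the earlier muscle cells and 64.9 CPM (58.7 to 71.6) in the later. It was 2.19-fold and 2.03-fold lower than in connective cells, and 3 of 11 alternatives at E12.5 (log2 ratios up to -0.93) and 7 of 11 at E15.5 put it under 2-fold. After thinning, 21.98% and 12.1% of muscle cells had a Crabp2 UMI, against 3.42% and 1.52% of endothelial-like cells, a measure of free RNA. Other such measures differed at E15.5, with 2.55 CPM (0.309 to 9.22) in immune-like cells and 98.3 CPM (63.6 to 145; 25 UMIs, 17 cells) in erythroid-like cells. The erythroid interval overlaps that of muscle. Endothelial cells also held less connective RNA than muscle, with marker sums of 207 and 283 CPM against 573 and 862 CPM. The part of carried-over RNA in the muscle level of Crabp2 was not tested. The median depth was 3746 and 14272 UMIs in muscle and 3913 and 11130 in endothelial cells. Meis1 was 21.6 CPM (16.2 to 28.2) and 27.2 CPM (23.2 to 31.6) in muscle, and found in 3.30% and 4.62% of thinned cells against 0 of 117 and 0 of 132 endothelial cells. At E12.5 it was 4.04-fold lower in muscle than in connective cells. At E15.5 the log2 ratio was -0.41 (-0.67 to -0.16), and it was 0.07 with the marker gate.

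Within the muscle lineage, Crabp2 and Meis1 were highest in the progenitor clusters. At E12.5 the cluster led by Msc and Pax7, genes of progenitors, had 147 CPM of Crabp2 (129 to 167). The cluster led by Myog and Mymx had 56.3 CPM (38.5 to 79.4), and that led by Myh3 and Mylpf, genes of formed fibres, had 37.1 CPM (18.5 to 66.4). At E15.5 the 2 clusters with Pax7 had 90.04 and 61.3 CPM, and those led by Mymx and by Mylpf had 33.2 and 28.0 CPM. Meis1 followed the same order at E15.5, with 41.4, 24.8, 11.9 and 2.33 CPM. Its E12.5 levels were 25.2, 15.8 and 13.5 CPM, with overlapping intervals. Rarb at E12.5 was 13.2 CPM (8.18 to 20.2) in the progenitor cluster and had 0 UMIs in the other 2. The intervals of those 2 reach 6.49 CPM in the Myog cluster and 12.4 CPM in the Myh3 cluster, the latter overlapping the progenitor interval.

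Between ages in muscle, 3 of the 9 members passed the filter. Of these, 1 was at least 2-fold higher at E15.5 (Crabp1), where 2.93% of the 8169 genes tested were, and 0 were at least 2-fold lower, where 15.6% were. Crabp1 went from 10.6 to 25.03 CPM (log2 ratio 1.24, 0.63 to 1.90), and it was 0.59 when no doublets were removed. Its thinned share in muscle at E15.5, 5.38% (3.36 to 8.11), overlapped that of endothelial-like cells, 1.52% (0.184 to 5.37), and of immune-like cells, 3.57% (0.435 to 12.3), so that a level above free RNA was not shown by the shares. Crabp2 had a log2 ratio of -0.80 (-1.02 to -0.57) and Meis1 one of 0.33 (-0.12 to 0.81). The receptors were under the filter, with Rarb at 8.56 CPM (5.30 to 13.1) and then 1.96 CPM (1.01 to 3.43), and Rarg at 6.93 CPM (4.03 to 11.1) and then 1.47 CPM (0.673 to 2.79).

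The wider pathway list, 34 genes of vitamin A supply, degradation, carriers, receptors, co-regulators, homeodomain partners and responding genes, was also followed. In connective cells 21 of 34 passed the filter, 5 at least 2-fold lower and 5 higher, where 17.9% and 7.72% of all genes tested were, with a median log2 ratio of -0.50 against -0.32 over all genes. In muscle 16 passed, 8 lower and 1 higher, where 15.6% and 2.93% of all genes were, with a median of -0.90 against -0.35. Between muscle and connective cells 18 passed at each age. At E12.5, 1 was lower and 3 were higher in muscle, where 12.6% and 5.24% of all genes were, with a median of 0.13 against -0.19. At E15.5, 5 were lower and 2 higher, where 19.9% and 7.04% of all genes were, with a median of -0.34 against -0.17. The other degrading enzymes, Cyp26a1 and Cyp26c1, did not pass in either class. The filter on the mean passes a gene through the group where it is high. These counts and medians are therefore not evidence of direction by themselves.

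Of the 5 genes higher in connective cells at E15.5, 2 belong to vitamin A supply. Rbp4, which carries retinol in blood, went from 5.56 CPM (4.59 to 6.67) to 81.3 CPM (77.2 to 85.6). Aldh1a3, an alternative enzyme of the last synthesis step, went from 4.78 CPM (3.89 to 5.82) to 41.3 CPM (38.3 to 44.4). Rarres2, which encodes chemerin, went from 6.86 to 89.8 CPM, Fabp5 from 173 to 432 CPM and Meis3 from 5.17 to 17.9 CPM. Stra6, the membrane receptor that lets retinol in, went the other way, from 16.9 CPM (15.1 to 18.7) to 3.69 CPM (2.85 to 4.70).

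Pbx2 and Pbx3, whose proteins pair with Meis on DNA, were at least 2-fold lower in connective cells at E15.5. Pbx2 went from 103 CPM (98.6 to 107) to 45.7 CPM (42.6 to 48.9) and Pbx3 from 55.9 CPM (52.7 to 59.2) to 21.9 CPM (19.8 to 24.2). Of the genes known to respond to retinoic acid, Nr2f1 went from 32.2 to 9.70 CPM and Nr2f2 from 117 to 58.1 CPM, while Rarres2, also on the list of responding genes, was higher as given above. In muscle Pknox2, a relative of the Meis genes, went from 55.4 CPM (46.5 to 65.5) to 13.1 CPM (10.4 to 16.3). The receptor gene Rxrg, which muscle cells held 58.3 CPM of at E12.5 against 5.31 CPM in connective cells, was 14.9 CPM at E15.5. Also lower in muscle were Rara (67.2 to 24.0 CPM), Stra6 (28.5 to 5.72 CPM), Nr2f2 (134 to 44.0 CPM), Ncoa3 (26.5 to 6.71 CPM), Nrip1 and Ncoa2. Fabp5, a carrier of fatty acids and retinoic acid, was the gene higher in muscle, at 330 CPM (308 to 354) and 1075 CPM (1049 to 1101).

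**Figure D5:**
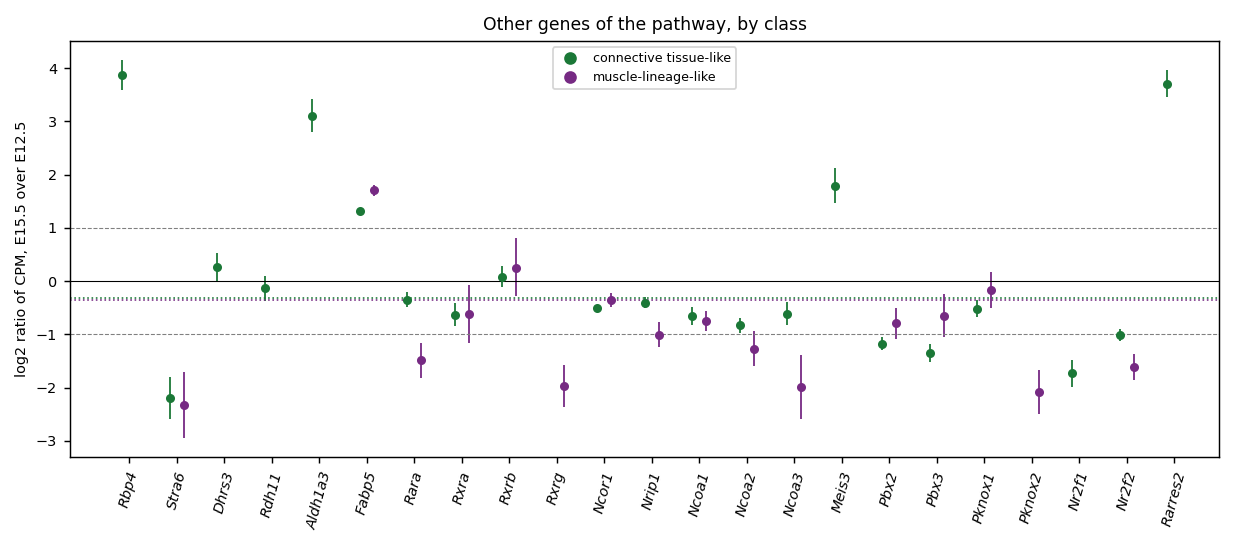
Log2 ratio of CPM, E15.5 over E12.5, with exact intervals, for the pathway genes that passed the filter in connective tissue-like (green) or muscle-lineage-like cells (purple); dashed lines mark 2-fold and dotted lines the median of all genes. Rbp4, Rarres2 and Aldh1a3 stand above 3 in connective cells, and Stra6 lies below -2 in both classes.

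Of 14 genes of the limb axis, 9 passed the filter in connective cells. Of these, 6 were at least 2-fold lower at E15.5 (Hoxa9, Hoxd9, Hoxd10, Shox2, Hoxd11 and Lhx9) and 0 were higher, where 17.9% and 7.72% of all genes tested were, with a median log2 ratio of -1.54 against -0.32 over all genes. Shox2, a gene of the proximal segment, went from 749 CPM (737 to 761) to 257 CPM (250 to 265), and Hoxd11, of the middle segment, from 43.8 to 12.4 CPM. Hoxa11 had a log2 ratio of -0.19. The distal genes Hoxd12, Hoxa13 and Hoxd13 were among the 5 that did not pass. In muscle 3 axis genes passed, of which 1 was lower, Shox2, at 53.4 CPM (44.6 to 63.3) and then 3.93 CPM (2.52 to 5.84). The limit of the filter given for the pathway list holds for the axis counts and median too.

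By the same measure of likeness over clusters of at least 50 cells, the genes closest to the other members differed between the ages. At E12.5 the first were Tshz2 for Aldh1a2 (r = 0.71), Lhfp for Rdh10 (r = 0.90), Tle5 for Crabp2 (r = 0.90) and for Rarb (r = 0.78), Ror1 for Meis1 (r = 0.90) and Meis1 for Meis2 (r = 0.85). At E15.5 they were Ngfr for Rdh10 (r = 0.73), Mpped2 for Cyp26b1 (r = 0.81), Pfn2 for Crabp2 (r = 0.92), Postn for Rarb (r = 0.90), Sertad1 for Rarg (r = 0.88), Gnl3 for Meis1 (r = 0.75) and Creb3l1 for Meis2 (r = 0.88). These are descriptions over clusters of 1 library each.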

How the data were processed

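Per the file headers and the submitters' processing notes, the values deposited are unnormalized UMI counts for every gene in every barcode, from Cell Ranger 4.0.0. The notes also name build mm10 and Seurat 4.3.0. The annotation release and the use of strand are not given in the sources used here. Barcodes with at least 500 genes and under 10% mitochondrial UMIs were kept, and the 0.8% per 1000 barcodes with the highest simulated-doublet scores were removed. Each library was clustered alone with scikit-learn 1.9.0, igraph 0.11.9 and leidenalg 0.10.2 (2000 variable genes without the genes studied, 30 components, 15 neighbours, Leiden resolution 1.0). Clusters were named from at least 3 markers of a fixed list. UMIs were summed per class and scaled to CPM, with exact Poisson, Clopper-Pearson and conditional intervals at 95% from scipy 1.17.1. A gene was tested if the mean of both levels reached 10 CPM, and called at 2-fold. A count of 0 is given the limit of 3 counts. The ratio code was tested on simulated data.

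The named genes are the 9 members, the pathway and limb axis genes past 2-fold, and the 3 genes of closest pattern per member (Pearson correlation of log2(CPM + 10) over clusters of at least 50 cells, among genes with a mean of at least 20 CPM). Members, lists and naming rule were chosen with earlier results of these data known. Some genes of the pathway list are not reported here and are left out of its counts. Of 32285 gene identifiers, 32158 were found in the GENCODE annotation of GRCm38; promoters are RefSeq's for GRCm38.p6. No protein sequences were used here. Alternatives were another resolution (0.5 or 2.0), no doublet removal, at least 1000 genes, under 5% mitochondrial UMIs, the studied genes left in the variable genes, scaling to the median gene, a marker gate of 3 UMIs on single cells, equal weight per cell, no low-value filter and, added after seeing the data, joined mesenchyme clusters. The gate took muscle cells by at least 3 muscle marker UMIs, whatever their other markers. It took connective cells by at least 3 connective marker UMIs and no UMI of muscle, endothelial, immune, erythroid, Schwann or epithelial markers. With 1 library per age and no statement on the number of embryos, no p-value is given.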

Additional observations from a re-analysis of the deposited data

How the results depend on the processing

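No paired analysis was possible because each age is 1 library and no test was made. Of the 9 members, 2 were at least 2-fold higher at E15.5 in connective tissue-like cells, and 1 was when the studied genes were left in the variable genes, under the marker gate, or with joined mesenchyme clusters. In muscle-lineage-like cells 0 members were at least 2-fold lower at E15.5, but 1 was with no doublets removed and 4 were with no low-value filter, which admits genes with a few UMIs; the 1 higher member became 0 with no doublets removed. The 6 members lower in muscle than in connective cells at E15.5 became 3 under the marker gate. The cause was not tested, apart from the filter, which changes the genes counted. Cyp26b1, Rarg and Crabp1 stayed past 2-fold between ages in connective cells under the 11 alternatives, in the ranges -3.23 to -2.29, -1.72 to -1.30 and 1.44 to 1.77. Meis1 there ranged from -1.56 to -0.95. Aldh1a2 changed sign under the marker gate (-0.95), as did Meis1 in muscle between ages (-0.14). Depth limits Aldh1a2, Rdh10, Cyp26b1, Rarb, Rarg and Meis2 in muscle, each with 23 or fewer UMIs at either age.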
